A study of Homo sapiens with 22 samples.

Results

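The comparison described here set alpha-synuclein-overexpressing LUHMES cells treated with 6-hydroxydopamine (6-OHDA), and given no compound, against untreated cells of the same genotype. The libraries were chosen by sample title and were 8 of the series' 22 libraries, 4 treated and 4 untreated. LUHMES is a line of human midbrain precursors, held in division by a switchable oncogene, that can be turned into postmitotic neurons, and the series' design text calls the cells differentiated. Both groups carried the same overexpression of alpha-synuclein, the protein that accumulates in Lewy bodies. The sources used here do not give the vector or promoter behind the overexpression, the 6-OHDA dose or the time of exposure. The series also holds 8 wild-type libraries (4 treated with 6-OHDA and 4 untreated), which serve below for 1 test of difference. A further 6 libraries are of treated alpha-synuclein cells also given quercetin or rutin. These 6 entered only the low-count filter, the scaling and the estimate of spread, which all 22 libraries shared.

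6-OHDA is a dopamine analogue that is taken up by dopaminergic cells and oxidises readily, producing hydrogen peroxide and reactive quinones. Cells meet such a load with overlapping programmes. NRF2, released from its inhibitor KEAP1, turns on glutathione, thioredoxin and quinone-reducing enzymes. Misfolded proteins in the endoplasmic reticulum (ER) activate the sensors IRE1, ATF6 and PERK, and phosphorylation of eIF2 alpha by PERK or related kinases raises translation of ATF4, which drives amino acid import and synthesis (the integrated stress response). Heat shock factors, p53 and AP-1 add chaperones, cell-cycle arrest genes and early-response factors.

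The libraries held 5409218, 2520764, 3926664 and 18607226 estimated counts in treated replicates 1 to 4, and 8107063, 17235347, 20667106 and 19678886 in untreated replicates 1 to 4. Levels are given as CPM, counts per 1000000 counts of a library size that was multiplied by a scaling factor (TMM). These factors were 1.12, 1.11, 1.09 and 0.948 in treated replicates 1 to 4. They were 0.864, 0.843, 0.867 and 0.890 in untreated replicates 1 to 4. On this scale 3 counts equalled 0.170 to 1.08 CPM in treated and 0.168 to 0.429 CPM in untreated libraries. Per the library names, every treated library was run on lane 2 and every untreated one on lane 1, so lane and 6-OHDA cannot be told apart here. Of the untreated libraries 2, replicates 3 and 4, carry 4 barcode numbers in their names. Treated replicate 4 stood apart from its group. On the first principal component of the 8 libraries, with 54.8% of the variance, treated replicates 1 to 4 scored 57.8, 65.3, 57.6 and 15.1, against -59.0, -43.1, -52.8 and -40.9 for untreated replicates 1 to 4. That library was also the deepest of its group. Counts of genes, gene lists and leading genes are therefore given with all 4 treated libraries and again without replicate 4. For other named genes the second value is given where the call changed or the size moved by more than 1.5 times. Mitochondrial mRNAs took 0.818 to 1.09% of counts with 6-OHDA and 0.868 to 1.20% without, so this measure overlapped between the groups. Nothing states that the replicates were separate cultures, so p-values measure the spread between these libraries, which may be technical.

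**Figure D1:**
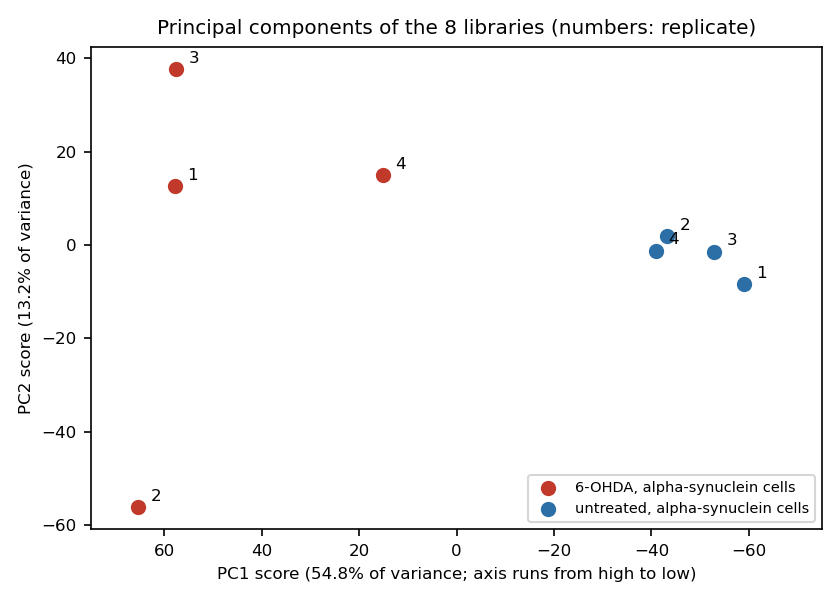
Scores of the 8 libraries on the first (x axis, with high scores at the left) and second (y axis) principal component of log2 CPM, with the replicate number beside each point. Treated libraries are red and untreated libraries blue. Treated replicate 4, at 15.1 on the first component, lies between the other treated libraries (57.6 to 65.3) and the untreated ones (-59.0 to -40.9).

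With 6-OHDA, edgeR's quasi-likelihood test called 7820 of 16601 genes at a Benjamini-Hochberg adjusted p under 0.05. That is 47.1% of the genes tested, with 3799 higher (22.9%) and 4021 lower (24.2%). Without treated replicate 4, 8520 of 16431 genes were called (51.9%), 4076 higher (24.8%) and 4444 lower (27.0%). The 2 sets shared 7396 genes, all with the same direction. A change of at least 2-fold was reached by 2376 called genes with replicate 4 and by 3153 without it. In 39.1% of tested genes the 4 treated and the 4 untreated libraries did not overlap. The share of a gene list that was called is to be read against these percentages. The median log2 change over all genes tested was 0.048, and 0.029 without replicate 4. Below, changes are log2 fold changes ± SE with treated over untreated cells, levels are CPM in replicates 1 to 4, and gene lists are described by the number of tested members called in each direction and by the median log2 change.

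Synucleins are presynaptic proteins that bind vesicle membranes. Gamma-synuclein, SNCG, fell by 1.14 with 50.8, 61.4, 40.7 and 64.3 CPM treated against 127, 107, 123.8 and 123.1 CPM untreated, and beta-synuclein, SNCB, had a change of 0.72 ± 0.81 that did not pass the threshold.

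Neuronal markers were present in all 8 libraries. The microtubule protein DCX had 949, 1075, 917 and 1619 CPM with 6-OHDA and 2572, 3175, 2422 and 2459.7 CPM untreated. The synaptic protein SNAP25 was at 83.4 to 97.2 CPM treated and 83.9 to 101.4 CPM untreated, with no call. The dopaminergic label rested on few markers. TH was well above the floor, but the vesicular transporter SLC18A2 was at 1.33 to 2.15 CPM with 6-OHDA and 1.00 to 2.48 CPM untreated, the decarboxylase DDC at 0 to 0.851 CPM with 6-OHDA and 1.43 to 2.43 CPM untreated, and ALDH1A1 and FOXA2 had 0 counts in all 8 libraries. PITX3 and LMX1A did not exceed 0.665 CPM in any library. Markers of other cell types ranged from near 0 to levels similar to that of TH in untreated cells. The 7 astrocyte markers summed to 57.3 to 66.0 CPM with 6-OHDA and 46.7 to 70.3 CPM untreated, with AQP4 at 0.498 CPM or less. The 7 oligodendrocyte markers summed to 39.01 to 63.7 CPM with 6-OHDA and 122.7 to 157 CPM untreated, with MOG and MAG at 0.470 CPM or less, and the 8 microglial and blood markers to 6.87 to 13.3 CPM with 6-OHDA and 5.53 to 7.66 CPM untreated, with AIF1 at 0.166 CPM or less. The 8 fibroblast and vessel markers summed to 84.7 to 112 CPM with 6-OHDA and 75.9 to 102.5 CPM untreated. The 7 epithelial markers summed to 334 to 391.7 CPM with 6-OHDA and 341 to 411 CPM untreated, nearly all of it KRT19 (319 to 380.4 CPM treated, 333 to 403 CPM untreated, not called). Markers of other neurons summed to 177 to 324 CPM with 6-OHDA and 412 to 522 CPM untreated, most of it the vesicular glutamate transporter SLC17A6, which fell by 1.18. Proliferation genes summed to 185 to 235 CPM with 6-OHDA and 264 to 412 CPM untreated. The oligodendrocyte-lineage genes OLIG1, OLIG2 and MBP fell, at -2.71, -1.01 and -1.14, and SOX10 rose by 1.05. The astrocyte genes GFAP and ALDH1L1 rose by 0.74 and 0.65, and GJA1 (-0.30) and SLC1A2 (0.054) were not called. CSF1R (0.27), CD68 (0.29), DCN (0.59) and EPCAM (0.88) were not called. PTPRC, of blood cells, CLDN5, of vessels, and the epithelial CDH1 and KRT8 rose by 1.07, 0.46, 0.77 and 0.79. PDGFRB and COL1A1 fell, at -1.42 and -0.45. TPH2 and SLC6A4, of serotonergic neurons, rose by 0.89 and 0.82, and SLC17A7 fell by 0.64. In bulk RNA, fewer cells of a type and less RNA per cell cannot be told apart, and the part of these markers in the results was not tested. SOX10 was not called without treated replicate 1 or untreated replicate 3 or 4 (0.83 to 0.97), nor GFAP without treated replicate 1, 2 or 3 or untreated replicate 3 or 4 (0.57 to 0.76), nor ALDH1L1 without treated replicate 1, 2 or 3 or untreated replicate 1, 2 or 3 (0.57 to 0.67), nor CLDN5 without treated replicate 1 or untreated replicate 3 (0.37 to 0.40), nor COL1A1 without treated replicate 2 or 3 or untreated replicate 1, 3 or 4 (-0.43 to -0.35), nor SLC6A4 without treated replicate 1 (0.74). EPCAM was called without treated replicate 1 or untreated replicate 1 (1.06 to 1.13).

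Genes of the ER folding system rose together, and replicate 4, which lay nearer to the untreated cells in most genes, was the highest library for several of them. Of 16 tested ER chaperones and foldases, 14 rose and 0 fell (median 1.23; without replicate 4, 13 and 0, median 1.08). The ER stress element, bound by ATF6 with NF-Y, and related motifs are known in the promoters of this group. The 250 bases before the start of 5 ER genes that rose, and of CHAC1 for the ATF4 branch, are printed from RefSeq on GRCh38.p14. All of these carry a marked element, so they do not stand for every gene that rose. Capitals mark CCAAT and CCACG set 9 bases apart (the ER stress element), ATTGG and CCACG set 1 base apart (ER stress element II) or TGATGCAA (the C/EBP-ATF response element, CARE), searched on both strands and not overlapping one another in these windows.
SDF2L1, chr22:21642052-21642301 on the plus strand, ER stress element II: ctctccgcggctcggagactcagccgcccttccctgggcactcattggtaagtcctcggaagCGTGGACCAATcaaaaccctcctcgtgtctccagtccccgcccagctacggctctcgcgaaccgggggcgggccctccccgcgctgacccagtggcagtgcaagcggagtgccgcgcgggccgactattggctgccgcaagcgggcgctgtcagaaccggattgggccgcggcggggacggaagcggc
ERO1B, chr1:236281959-236282208 on the minus strand, ER stress element: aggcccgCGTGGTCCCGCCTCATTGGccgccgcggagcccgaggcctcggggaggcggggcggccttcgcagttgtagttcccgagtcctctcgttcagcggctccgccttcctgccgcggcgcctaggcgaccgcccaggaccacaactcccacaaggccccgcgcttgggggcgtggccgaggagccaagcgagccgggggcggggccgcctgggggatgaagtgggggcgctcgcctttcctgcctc
HERPUD1, chr16:56931892-56932141 on the plus strand, CARE and then ER stress element II: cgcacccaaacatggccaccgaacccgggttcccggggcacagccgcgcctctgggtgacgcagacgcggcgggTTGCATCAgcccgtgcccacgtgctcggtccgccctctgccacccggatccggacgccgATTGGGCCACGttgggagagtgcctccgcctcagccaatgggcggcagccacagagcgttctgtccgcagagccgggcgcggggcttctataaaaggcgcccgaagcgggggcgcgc
HSP90B1, chr12:103930160-103930409 on the plus strand, 2 ER stress elements: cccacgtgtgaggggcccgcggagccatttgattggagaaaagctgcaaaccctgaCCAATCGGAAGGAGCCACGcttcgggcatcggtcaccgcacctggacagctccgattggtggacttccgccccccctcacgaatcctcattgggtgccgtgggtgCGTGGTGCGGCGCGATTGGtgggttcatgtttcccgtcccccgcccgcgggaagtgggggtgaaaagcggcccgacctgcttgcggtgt
XBP1, chr22:28800570-28800819 on the minus strand, ER stress element: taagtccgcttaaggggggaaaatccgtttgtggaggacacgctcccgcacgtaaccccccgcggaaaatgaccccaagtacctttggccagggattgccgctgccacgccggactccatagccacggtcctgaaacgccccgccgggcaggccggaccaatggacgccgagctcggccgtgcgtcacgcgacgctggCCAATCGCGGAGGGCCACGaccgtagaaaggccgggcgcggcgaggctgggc
CHAC1, chr15:40953221-40953470 on the plus strand, CARE: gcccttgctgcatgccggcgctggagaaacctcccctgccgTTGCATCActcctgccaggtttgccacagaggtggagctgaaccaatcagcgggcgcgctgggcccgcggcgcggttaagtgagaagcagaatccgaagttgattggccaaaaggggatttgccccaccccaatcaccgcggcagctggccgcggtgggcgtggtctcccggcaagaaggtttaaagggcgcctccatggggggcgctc

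The windows searched ran from 250 bases before to 50 bases after each start. The ER stress element was in 22 of 27305 such promoters (0.0806%), and in 5 of the 15 promoters found for tested ER chaperones (those of CALR, CANX, CRELD2, ERO1B and HSP90B1). ER stress element II was in 15 promoters (0.0549%), among them those of SDF2L1, HYOU1 and HERPUD1. Of 8 promoters found for tested genes of ER-associated degradation, 0 carried the ER stress element and 1 carried ER stress element II. CARE was in 252 promoters (0.923%). It was in 6 of 15 found for tested aminoacyl-tRNA synthetases, in 1 of 8 for feedback and output genes of the integrated stress response and in 1 of 7 for serine, one-carbon and asparagine synthesis. It was in 0 of 10 for amino acid transporters and 0 of 6 for transcription factors of the integrated stress response. The antioxidant response element (TGAC and GC set 3 bases apart) was in 13.6% of all promoters. It was in 1 of 6 for NRF2 regulators, 2 of 10 for quinone and aldehyde enzymes, 2 of 6 for glutathione supply and 3 of 12 for glutathione use. It was in 1 of 5 for thioredoxins and reductases and 0 of 6 for peroxide and superoxide enzymes. Outside the antioxidant lists it was in 4 of 8 for feedback and output genes of the integrated stress response and 3 of 10 for amino acid transporters. A heat shock element (TTC, GAA and TTC set 2 bases apart) was in 133 promoters (0.487%), and in 3 of 15 for tested heat shock genes. In these windows the element began 188 bases before the start in SDF2L1, 243 in ERO1B, 52 in XBP1 and 209 in CHAC1. A match is a description of the letters and not of binding. CRELD2 carries the element and had a change of 0.26 ± 0.15 that did not pass the threshold, and NARS1 carries CARE and fell by 0.95. CRELD2 was called without treated replicate 1 (0.40).

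ERO1B, an oxidase that recharges disulfide isomerases, had 57.3, 59.9, 67.4 and 126 CPM with 6-OHDA, against 8.29, 13.2, 11.0 and 9.83 CPM untreated, a change of 2.88 ± 0.21 (adjusted p = 6.11e-10). HSP90B1, the ER form of HSP90, stood at 139.9, 172, 151 and 229 CPM treated and 41.7, 64.7, 49.7 and 46.7 CPM untreated (1.77 ± 0.23, and 1.60 without replicate 4). PDIA6, a disulfide isomerase, had 403, 457, 519.8 and 924 CPM with 6-OHDA and 228, 285, 271 and 245 CPM without. The change of PDIA6 was 1.17 ± 0.18, and 0.84 without replicate 4. In these 3 genes replicate 4 was the highest treated library and the groups did not overlap. MANF, an ER-resident neurotrophic factor, showed the same order, with 144, 165, 206 and 345 CPM treated and 94.9, 95.9, 104 and 102.1 CPM untreated (1.13 ± 0.17, and 0.79 without replicate 4). The low-level cochaperone SDF2L1 had 2.33 to 8.06 CPM with 6-OHDA and 0.286 to 0.826 CPM untreated and rose by 3.07 ± 0.46, and PDIA4, P4HB, HYOU1, DNAJC3 and DNAJB9 rose by 1.88, 1.58, 1.47, 1.60 and 1.30. CANX, a membrane-bound lectin chaperone, rose by 0.52 ± 0.16 with all libraries and was not called without replicate 4 (0.40). ERO1A had -0.093 ± 0.18 and was not called. HSPA5 was not analysed here.

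**Figure D2:**
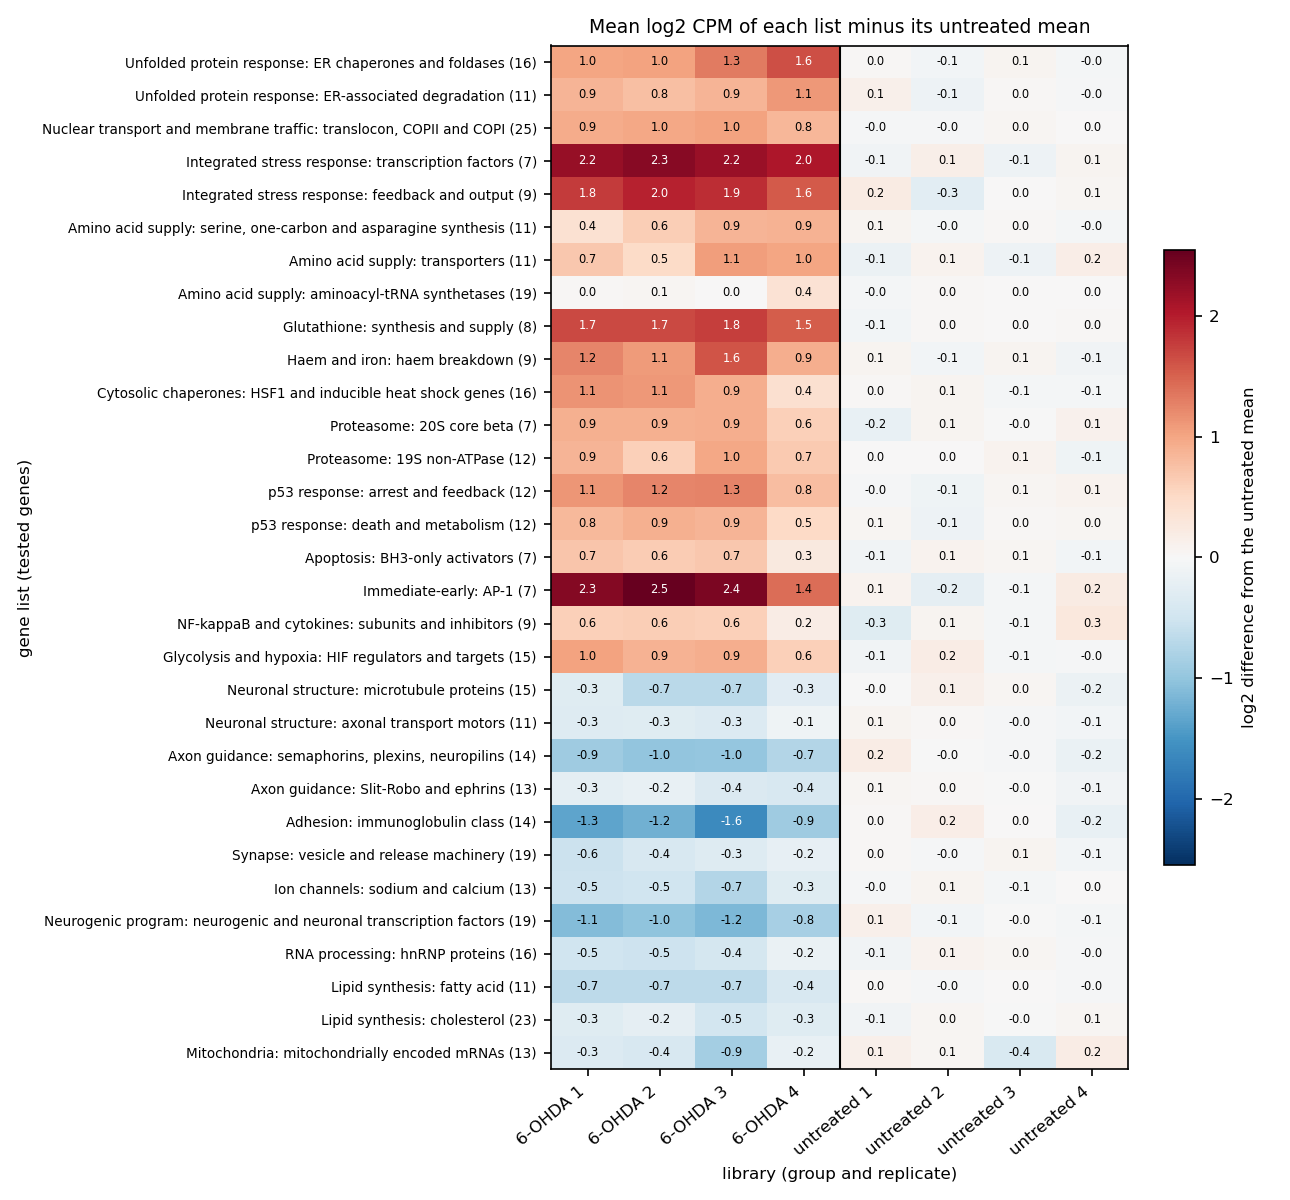
Mean log2 CPM of the tested genes of 31 lists in each library, minus the mean of the 4 untreated libraries, with treated libraries in the 4 columns at the left, untreated libraries at the right and the number of tested genes in brackets. Replicate 4 has the deepest red of the treated libraries for ER chaperones and a paler one than replicates 1 to 3 for heat shock, p53 and AP-1 genes.

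Upstream of these chaperones, genes of the IRE1 branch rose and ATF6 was not called. XBP1, whose mRNA is spliced by IRE1, had 414, 387, 395 and 496 CPM with 6-OHDA, against 157, 173, 165 and 177 CPM untreated (1.33 ± 0.075, and 1.25 without replicate 4, adjusted p = 1.43e-11). ERN1, which encodes IRE1 alpha, had 26.1, 19.0, 28.2 and 10.2 CPM treated and 7.86, 6.61, 7.60 and 7.49 CPM untreated (1.46 ± 0.21, and 1.75 without replicate 4), and here replicate 4 was the lowest of its group. The membrane-bound factors CREB3L2 and CREB3 rose by 1.38 and 0.62. ATF6 (-0.0088 ± 0.73), ATF6B (-0.11 ± 0.30) and the proteases that cleave them, MBTPS1 (0.050 ± 0.11) and MBTPS2 (-0.093 ± 0.33), were not called. Gene totals do not show splicing or cleavage, so the activity of these sensors was not measured.

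Removal of misfolded proteins from the ER rose as well. Of 11 tested genes of ER-associated degradation, 8 rose and 0 fell (median 1.15; without replicate 4, 7 and 0, median 1.04). HERPUD1, a scaffold of the retrotranslocation complex, had 393, 444, 375 and 597 CPM with 6-OHDA, against 109.7, 123.4, 108 and 113 CPM untreated (2.00 ± 0.11, and 1.83 without replicate 4, adjusted p = 1.18e-11), with replicate 4 highest. SEL1L and SYVN1, the adaptor and the ligase of the HRD1 complex, rose by 1.33 ± 0.18 and 1.15 ± 0.10, the mannosidase-like lectin EDEM1 by 1.55 ± 0.14, and the extracting ATPase VCP by 0.88 ± 0.10. OS9, a lectin of the same complex, rose by 0.37 with all libraries and was not called without replicate 4 (0.19). Among 25 tested genes of the translocon, COPII and COPI coats and their cargo receptors, 19 rose and 0 fell (median 0.97; without replicate 4, 20 and 0, median 1.04). SEC24D, a cargo-binding COPII subunit, had 95.2, 104, 101.7 and 68.1 CPM with 6-OHDA and 22.0, 16.2, 24.3 and 18.3 CPM untreated (2.18 ± 0.14, and 2.32 without replicate 4). The translocon subunit SEC61G rose by 1.94, the translocon-associated SSR3 by 1.78, the COPII cage subunit SEC13 by 1.51 and the KDEL receptor KDELR2 by 1.55, while SEC16A (-0.056) and KDELR1 (0.042) were not called. SEC31A, the outer COPII subunit, rose by 1.07. OS9 was not called without untreated replicate 2 or 4 (0.34 to 0.35).

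The integrated stress response was seen in its transcription factors, all 7 of which rose with and without replicate 4 (median 1.93, and 1.79 without it). DDIT3 (CHOP) had 105, 110.2, 113 and 109 CPM with 6-OHDA, against 17.3, 19.8, 17.7 and 16.6 CPM untreated, a change of 2.61 ± 0.073 (adjusted p = 1.43e-16). ATF4, whose protein is controlled mainly in translation, had 803, 805, 791 and 817 CPM treated and 499, 481, 488 and 482 CPM untreated (0.72 ± 0.060, and 0.72 without replicate 4). For both genes the 4 treated libraries were close to one another, replicate 4 included. ATF3, an early-response repressor, behaved otherwise, with 30.9, 30.1, 35.5 and 10.0 CPM with 6-OHDA and 2.00, 2.27, 2.96 and 2.11 CPM without (3.42 ± 0.30, and 3.75 without replicate 4), and replicate 4 was well below the other treated libraries. CEBPB, which the series' design text names beside quercetin, had 50.5, 58.5, 54.5 and 45.0 CPM treated and 3.14, 3.03, 4.13 and 3.03 CPM untreated (3.93 ± 0.16, and 4.01 without replicate 4), and its partner CEBPG rose by 1.93 ± 0.35. ATF5 and NUPR1 rose by 1.85 and 0.98. Of the eIF2 alpha kinases, the haem-regulated EIF2AK1 rose by 0.83 ± 0.20, while EIF2AK3 (PERK, 0.11), EIF2AK2 (-0.10) and EIF2AK4 (-0.26) were not called.

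Genes known as targets of ATF4 and CHOP mostly rose. Of 9 tested feedback and output genes, 6 rose and 2 fell (median 2.19; without replicate 4, the same, median 2.34). GDF15, a stress-induced cytokine, had 30.6, 33.02, 42.1 and 22.3 CPM with 6-OHDA, against 2.43, 0.964, 1.73 and 0.971 CPM untreated (4.46 ± 0.24, and 4.63 without replicate 4). TRIB3, a pseudokinase that inhibits AKT, rose by 2.86 ± 0.21, the glutathione-degrading enzyme CHAC1 by 2.52 ± 0.36, the secreted glycoprotein STC2 by 2.97 ± 0.21, the mTORC1 inhibitor DDIT4 by 2.19 ± 0.14, and the phosphatase subunit PPP1R15A, which reverses eIF2 alpha phosphorylation, by 1.64 ± 0.23. VLDLR and TRIB2 fell, at -0.81 and -0.41.

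Most genes of amino acid import and synthesis also rose. SLC7A11, the cystine importer that feeds glutathione synthesis (chromosome 4, 138164097 to 138242349 on the minus strand, GRCh38), had 234, 271, 228 and 417 CPM with 6-OHDA, against 7.14, 16.1, 7.77 and 12.8 CPM untreated (4.69 ± 0.22, and 4.45 without replicate 4, adjusted p = 1.27e-12), and replicate 4 was again the highest. Its heavy chain SLC3A2 rose by 2.16 ± 0.11. Of 11 tested amino acid transporters, 8 rose and 0 fell (median 1.03; without replicate 4, 8 and 2, median 0.81). The glutamine transporter SLC1A5 rose by 1.77 and the arginine transporter SLC7A1 by 1.44, whereas SLC38A1, another glutamine carrier, had -0.24 ± 0.11, which was called lower without replicate 4 (-0.42). SLC1A4 and SLC36A4, carriers of neutral amino acids, rose by 1.09 and 1.03. Among 11 genes of serine, one-carbon and asparagine synthesis, 8 rose and 0 fell (median 0.75; without replicate 4, 7 and 0, median 0.66). MTHFD2, a mitochondrial folate enzyme, had 260.0, 328, 303 and 490.2 CPM treated and 104, 133, 113 and 115.3 CPM untreated (1.57 ± 0.14, and 1.35 without replicate 4), ASNS, which makes asparagine, rose by 1.20, and PHGDH, the entry to serine synthesis, by 0.96. PYCR1, of proline synthesis, rose by 0.75. Of 19 aminoacyl-tRNA synthetases, 6 rose and 4 fell (median 0.21; without replicate 4, 5 and 4, median 0.050), with RARS1 at 0.80 and IARS1 at 0.56 (0.36 without replicate 4) among the risers and LARS1 at -0.37 (-0.57) among those that fell. EPRS1 rose by 0.44, and KARS1 and QARS1 fell, at -0.30 and -0.34. The mean log2 CPM of this list lay 0.37 above the untreated mean in treated replicate 4 and no more than 0.056 above it in replicates 1 to 3, against -0.042 to 0.023 in the untreated libraries. LARS1 was not called without treated replicate 1, 2 or 3 or untreated replicate 2, 3 or 4 (-0.35 to -0.28).

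**Figure D3:**
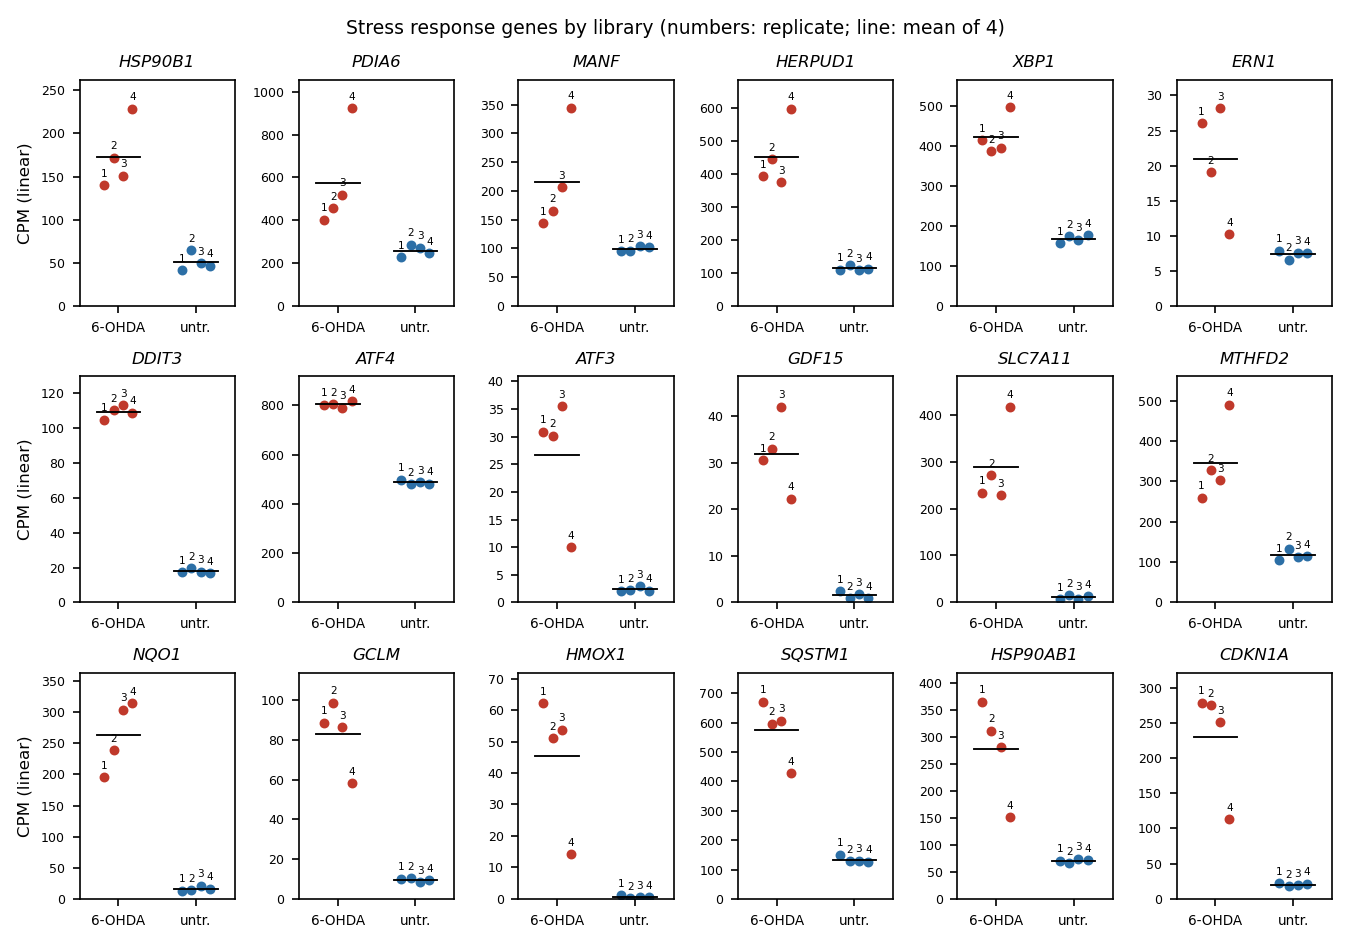
Levels of 18 stress response genes in each library (y axis, CPM on a linear scale starting at 0), with the 4 treated libraries in red at the left of each panel, the 4 untreated libraries in blue at the right, replicate numbers above the points and a line at the mean of 4. Replicate 4 is the highest treated library for HSP90B1, PDIA6, MANF, HERPUD1, XBP1, SLC7A11, MTHFD2 and NQO1 and the lowest for ERN1, ATF3, GDF15, GCLM, HMOX1, SQSTM1, HSP90AB1 and CDKN1A.

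Antioxidant genes rose in part of their pathways. HMOX1, haem oxygenase 1 (chromosome 22, 35380361 to 35394214 on the plus strand, GRCh38), had 62.1, 50.97, 53.8 and 14.3 CPM with 6-OHDA, against 1.14, 0.207, 0.615 and 0.457 CPM untreated. Replicate 4 was the lowest treated library but lay far above every untreated one. The change was 6.33 ± 0.47 (adjusted p = 7.38e-10), or 6.68 without replicate 4. NQO1, which reduces quinones by 2 electrons at once, had 196, 239, 304 and 315 CPM treated and 13.4, 13.6, 21.1 and 16.7 CPM untreated (4.01 ± 0.17, and 3.90 without replicate 4), and replicate 4 was the highest. Of 7 tested NRF2 regulators, 4 rose and 0 fell (median 0.82; without replicate 4, 4 and 1, median 0.82). The small MAF partners MAFF and MAFG rose by 2.12 ± 0.24 and 1.92 ± 0.18, the repressor BACH1 by 1.02 ± 0.11 and NFE2L2, the NRF2 gene, by 0.82 ± 0.10, while KEAP1 had 0.18 ± 0.10 and was not called. Other quinone and aldehyde enzymes were less uniform, and of 11 tested, 3 rose and 2 fell (median 0.27; without replicate 4, 2 and 2, median 0.20). The carbonyl reductase CBR1 and the epoxide hydrolase EPHX1 fell, at -0.63 and -0.46, and CBR1 was not called without replicate 4 (-0.52). The design text names AKR13C beside rutin, which is read here as AKR1C3, an aldo-keto reductase. It had 5, 3, 8 and 21 counts in the treated libraries and 5, 10, 16 and 23 counts in the untreated ones, and its change of 0.40 ± 0.43 was not called (adjusted p = 0.472). AKR1C1, AKR1C2 and AKR1C3 are near-identical, so their counts are uncertain. CBR1 was not called without treated replicate 1 or untreated replicate 4 (-0.58 to -0.52).

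Most genes of glutathione supply and turnover rose. Of 8 genes, 6 rose and 1 fell (median 1.75; without replicate 4, the same, median 1.83). These include CHAC1, which degrades glutathione and is also counted in the integrated stress response, and 5 of the other 7 rose. GCLM, the modifier of the rate-limiting ligase, had 88.6, 98.7, 86.2 and 58.1 CPM with 6-OHDA, against 10.1, 10.3, 8.33 and 9.54 CPM untreated (3.10 ± 0.14, and 3.26 without replicate 4), and the catalytic subunit GCLC rose by 0.92 ± 0.075. GSS, which completes glutathione, fell by 0.89. Among 14 genes of glutathione use, 6 rose and 3 fell (median 0.30; without replicate 4, the same, median 0.31), with the reductase GSR at 1.30 ± 0.18 and the secreted peroxidase GPX3 at 2.80 ± 0.26, and with GPX4, which reduces lipid peroxides, and the transferase GSTP1 falling, at -0.40 and -0.29. The ER peroxidase GPX8 and the transferase GSTM2 rose by 0.85 and 0.62. TXNRD1 (thioredoxin reductase) rose by 1.65 ± 0.072, SRXN1 (sulfiredoxin) by 2.04 ± 0.10 and the peroxiredoxin PRDX1 by 2.85 ± 0.17. PRDX6 (0.54) and the mitochondrial thioredoxin TXN2 (-0.37) were not called with all libraries and were called without replicate 4 (0.66 and -0.55). TXNIP, the thioredoxin inhibitor, fell by 1.60. The superoxide dismutases moved apart. SOD1, the cytosolic enzyme, rose by 0.80 ± 0.080, while SOD2, the mitochondrial one, had 20.9, 26.6, 22.8 and 60.5 CPM with 6-OHDA and 90.3, 118, 105 and 77.1 CPM untreated (-1.50 ± 0.23, and -2.07 without replicate 4). Of 7 tested NADPH suppliers, 3 rose and 1 fell (median 0.35), with the same counts without replicate 4 (median 0.36). PGD, TALDO1 and TKT rose by 1.11, 0.73 and 0.39. GSTP1 was not called without treated replicate 2 (-0.20). PRDX6 was called without untreated replicate 3 (0.73), and TXN2 without untreated replicate 1 (-0.42).

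Iron and metal genes were called as well. FTH1, the ferritin heavy chain, rose by 1.61 ± 0.095. TFRC, the transferrin receptor, had 168, 153, 191 and 60.3 CPM with 6-OHDA, against 23.6, 23.3, 25.5 and 24.6 CPM untreated (2.54 ± 0.24, and 2.82 without replicate 4), so that an iron store and an iron importer both rose. STEAP3, which reduces imported iron, and ACO1, which also binds iron-response elements, fell, at -1.25 and -0.71. The biliverdin reductase BLVRB and the haem exporter of the lysosome SLC48A1 rose by 2.33 ± 0.28 and 1.77 ± 0.56. In haem synthesis, ALAS1 and UROD rose by 0.33 and 0.64, and SLC39A14, which carries iron and zinc, by 0.72. Of 8 tested metallothioneins and zinc transporters, 4 rose and 0 fell (median 0.80; without replicate 4, the same, median 0.84). MT1X had 12.6, 12.2, 10.8 and 5.73 CPM treated and 1.43, 1.31, 1.34 and 1.09 CPM untreated (2.96 ± 0.27, and 3.21 without replicate 4), and MT2A was at 0 to 0.454 CPM treated and 0 to 0.143 CPM untreated and was not tested. The zinc transporters SLC30A3, SLC30A4 and SLC39A10 rose by 1.20, 0.94 and 0.58. SLC48A1 was not called without treated replicate 3 (1.43).

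Most heat shock genes rose, and as a list they lay closer to the untreated cells in replicate 4 than in replicates 1 to 3. Of 16 tested heat shock genes, 13 rose and 0 fell (median 1.03; without replicate 4, 14 and 0, median 1.17). HSP90AB1, the constitutive cytosolic HSP90, had 365, 312, 281 and 151 CPM with 6-OHDA, against 70.9, 66.0, 74.8 and 72.3 CPM untreated (1.96 ± 0.17, and 2.17 without replicate 4). HSP90AA1, its stress-inducible relative, had 0.18 ± 0.11 and was not called, but rose without replicate 4 (0.31). The HSP70 partners DNAJB1, HSPH1 and BAG3 rose by 1.45 ± 0.33, 1.04 ± 0.15 and 1.08 ± 0.15, and the mitochondrial chaperonins HSPD1 and HSPE1 by 1.17 and 0.73. CHORDC1, an HSP90 partner, rose by 1.03. The mean log2 CPM of this list stood 1.14, 1.11, 0.92 and 0.40 above the untreated mean in treated replicates 1 to 4. HSPA1A had no more than 0.0559 CPM in any library and was not tested. The TRiC chaperonin, which folds tubulin and actin, was mixed, and of 8 subunits, 3 rose and 1 fell (median 0.32; without replicate 4, 2 and 1, median 0.22). TCP1, CCT3 and CCT8 rose by 0.85, 0.53 and 0.47, and CCT5 fell by 0.43, and CCT8 was not called without replicate 4 (0.30). CCT3 was not called without treated replicate 3 or untreated replicate 2 or 4 (0.40 to 0.46), nor CCT8 without untreated replicate 1, 3 or 4 (0.39 to 0.43).

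Most genes of the proteasome core and cap rose. Of 7 alpha subunits of the 20S core, 6 rose and 0 fell (median 0.58; without replicate 4, the same, median 0.55), and of 7 constitutive beta subunits, 4 rose and 0 fell (median 0.95; without replicate 4, the same, median 1.16). In the 19S cap, of 6 ATPases, 5 rose and 0 fell (median 0.55; without replicate 4, the same, median 0.56), and of 12 other subunits, 10 rose and 0 fell (median 0.89; without replicate 4, the same, median 0.95). PSMD14, the deubiquitinase of the cap, had 33.4, 28.7, 35.2 and 21.2 CPM with 6-OHDA, against 5.43, 8.95, 4.53 and 8.29 CPM untreated (2.09 ± 0.23, and 2.25 without replicate 4, adjusted p = 2.13e-07), and the core subunits PSMB1 and PSMB4 rose by 1.55 ± 0.26 and 1.38 ± 0.13. PSMB7 and PSMB6, which carry trypsin-like and caspase-like sites, rose by 1.31 and 0.95. Among the alpha subunits, PSMA3, PSMA5, PSMA2 and PSMA1 rose by 0.97, 0.91, 0.82 and 0.58. The ATPases PSMC6, PSMC2, PSMC1 and PSMC4 rose by 1.43, 0.76, 0.71 and 0.39, and the cap subunits PSMD12, PSMD3 and PSMD11 by 1.16, 1.01 and 0.93. Of the immunoproteasome subunits, PSMB8 and PSMB9 were too low to test. PSMB10 had -0.37 ± 0.17 and was called lower only without replicate 4 (-0.47). Of 14 ubiquitin and conjugation genes, 6 rose and 5 fell (median 0.034; without replicate 4, 6 and 6, median -0.029). Partners of VCP rose (NPLOC4 by 0.92, UFD1 by 0.81), as did the stress-linked ZFAND2A (1.24 ± 0.12), whereas UBA1, the main ubiquitin-activating enzyme, fell by 0.97. ZFAND5, a proteasome activator, rose by 1.15.

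Autophagy genes were called in both directions. SQSTM1 (p62), a cargo receptor, had 671, 596, 606 and 427 CPM with 6-OHDA, against 150.3, 128, 129.8 and 127 CPM untreated (2.11 ± 0.10, and 2.23 without replicate 4). The other cargo receptors CALCOCO2 and TAX1BP1 rose by 0.53 and 0.40, and OPTN fell by 0.35 (-0.57 without replicate 4). Of 14 core genes, 4 rose and 2 fell (median 0.083; without replicate 4, 5 and 3, median 0.069). With all libraries, the share of core genes higher was near the 22.9% over all genes tested. The share lower was below the 24.2% over all genes tested. The conjugation proteins ATG5 and ATG12 rose by 0.72 and 0.71. Among the ATG8 proteins, GABARAPL1 rose by 2.10 ± 0.14, GABARAP and MAP1LC3A fell, at -0.65 and -0.74, and MAP1LC3B had 0.091 ± 0.075 and was not called. TFEB, a factor that controls lysosomal genes, rose by 1.56 ± 0.35. The lysosomal proteases moved apart, with CTSD, which cleaves alpha-synuclein, at 1.49 ± 0.18 and CTSB at -0.93 ± 0.11, and of 12 lysosomal genes, 5 rose and 3 fell (median 0.27; without replicate 4, 4 and 4, median 0.24). OPTN was not called without treated replicate 1, 2 or 3 or untreated replicate 1, 2 or 3 (-0.37 to -0.25), nor MAP1LC3A without treated replicate 1, 2 or 3 or untreated replicate 1, 2 or 3 (-0.80 to -0.61).

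Genes of growth arrest and cell death were called in both directions. CDKN1A, the p21 inhibitor of cyclin-dependent kinases, had 278, 275, 250.5 and 113.5 CPM with 6-OHDA, against 22.3, 18.5, 19.1 and 21.7 CPM untreated (3.49 ± 0.22, and 3.73 without replicate 4), with replicate 4 lowest of the treated libraries. GADD45B, GADD45G and GADD45A, which act in arrest and in p38 signalling, rose by 4.22 ± 0.26 (4.42 without replicate 4), 2.35 ± 0.20 and 1.39 ± 0.19. Of 12 p53 targets in death and metabolism, 7 rose and 1 fell (median 0.96; without replicate 4, 8 and 1, median 1.19). AEN, a nuclease of p53-dependent apoptosis, rose by 1.67 ± 0.23, the ferredoxin reductase FDXR by 1.60 ± 0.27 and PHLDA3, an AKT repressor, by 1.44 ± 0.18. The death receptor TNFRSF10B and the translesion polymerase POLH rose by 1.40 and 0.94. Of the BH3-only genes, PMAIP1 (NOXA) had 55.8, 58.5, 60.9 and 28.7 CPM treated and 5.14, 7.64, 7.54 and 8.17 CPM untreated (2.77 ± 0.19, and 3.00 without replicate 4), BBC3 (PUMA) rose by 1.40 ± 0.13, and BID and HRK fell, at -0.75 and -0.36, HRK with -0.61 without replicate 4. The initiator CASP8 and the pore-forming BAX rose by 0.95 ± 0.20 and 0.81 ± 0.092. BAK1, the relative of BAX, rose by 0.54. Of 9 tested apoptosis effectors, 4 rose and 2 fell (median 0.096), and without replicate 4 these counts were 3 and 2 (median 0.096). Of the inhibitors, BIRC3 and XIAP rose by 0.98 and 0.34, and MCL1 (0.37) and BCL2L2 (-0.23) were not called. Without replicate 4, XIAP was not called (0.21) and BCL2L2 was called lower (-0.37). HRK was not called without treated replicate 1, 2 or 3 or untreated replicate 2 (-0.33 to -0.24), nor BIRC3 without treated replicate 2 or 3 or untreated replicate 1, 2 or 3 (0.55 to 1.06). MCL1 was called without untreated replicate 1 (0.58).

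Most AP-1 genes rose, and other early-response genes and inhibitors of MAP kinase signalling were called in both directions. Of 7 tested AP-1 genes, 6 rose and 0 fell (median 2.12; without replicate 4, the same, median 2.38). FOS and FOSB had changes of 4.51 ± 0.34 and 4.54 ± 0.32 (4.80 and 4.86 without replicate 4). FOSB had 33.9, 45.9, 47.0 and 13.8 CPM with 6-OHDA, against 1.71, 1.79, 1.23 and 1.20 CPM untreated, and FOSL1 and FOSL2 rose by 2.25 and 2.12. JUN rose by 0.38 ± 0.10, and JUND had 0.027 ± 0.10 and was not called. Of 10 tested genes of the EGR, KLF, IER and MYC families and their like, 4 rose and 2 fell (median 0.87; without replicate 4, 5 and 2, median 1.10). KLF4 rose by 4.86 ± 0.55 (5.27 without replicate 4) and the activity-linked ARC by 2.14 ± 0.37, while MYC and IER2 fell, at -0.76 and -0.71. Among 11 tested inhibitors of MAP kinase signalling, 1 rose and 4 fell (median -0.64; without replicate 4, 1 and 5, median -0.45). SPRY4, a receptor tyrosine kinase antagonist, had 19.1, 14.0, 10.6 and 4.88 CPM treated and 94.4, 85.0, 93.9 and 67.1 CPM untreated (-2.92 ± 0.28, and -2.51 without replicate 4), and the ERK phosphatase DUSP6 fell by 2.76, whereas DUSP4 rose by 0.85 ± 0.30. SPRY1 and SPRED2, antagonists of the same pathway, fell, at -1.60 and -1.53. Of 9 NF-kappaB subunits and inhibitors, 4 rose and 0 fell (median 0.54; without replicate 4, the same, median 0.64), with NFKB2 at 1.02 ± 0.37. REL, RELA and the inhibitor NFKBIB rose by 0.68, 0.54 and 0.57. Among secreted signals the vascular growth factor VEGFA and the neuronal peptide precursor VGF rose by 0.98 and 0.90, and BDNF had -0.41 ± 0.25 and was not called. Of 11 interferon-stimulated genes, 3 rose and 0 fell (median 0.32; without replicate 4, 4 and 1, median 0.10), among them IRF1 at 3.16 ± 0.27. IFIT1 and MX1 rose by 0.52 and 0.41, and OAS1 had 0.94 ± 0.37 and was called only without replicate 4 (1.38). In antigen presentation B2M rose by 0.77, the peptide-loading factor TAPBP fell by 1.34, and HLA-E (0.64) and HLA-B (-0.26) were not called. Of 15 tested regulators and targets of the hypoxia factor HIF, 10 rose and 2 fell (median 0.50; without replicate 4, 10 and 3, median 0.51). The oxygen sensor EGLN3 rose by 3.26 ± 0.24 and the collagen hydroxylase P4HA2 by 1.71 ± 0.13, while EGLN1 fell by 0.69. Of 21 glycolysis genes, 4 rose and 9 fell (median -0.18; without replicate 4, 5 and 9, median -0.19). Phosphofructokinase PFKM, lactate dehydrogenase LDHA and the glucose transporter SLC2A1 fell, at -1.14, -0.74 and -0.67, while aldolase ALDOA rose by 0.98. DUSP4 was not called without treated replicate 1, 2 or 3 or untreated replicate 2 or 4 (0.67 to 0.80), nor NFKB2 without treated replicate 1 or 2 or untreated replicate 2 (0.89 to 0.91), nor RELA without treated replicate 2 or untreated replicate 2 or 4 (0.33 to 0.50), nor MX1 without treated replicate 1, 2 or 3 or untreated replicate 1, 2 or 3 (0.31 to 0.44), nor B2M without treated replicate 1 or 3 or untreated replicate 1 or 3 (0.57 to 0.73). OAS1 was called without untreated replicate 4 (1.13).

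Dopaminergic genes did not move as a block. Of 10 tested genes of dopamine synthesis, storage and breakdown, 2 rose and 5 fell (median -0.20; without replicate 4, the same, median -0.28). Of 8 midbrain transcription factors, 3 rose and 4 fell (median 0.092; without replicate 4, the same, median 0.15). Of 7 trophic receptors, 0 rose and 6 fell (median -0.60; without replicate 4, 0 and 5, median -0.69). TH, which catalyses the slowest step towards dopamine, had 83.9, 71.8, 46.8 and 66.6 CPM with 6-OHDA, against 419, 321, 323 and 331 CPM untreated. The groups did not overlap, the change was -2.37 ± 0.15 (adjusted p = 7.34e-11), and it was -2.36 without replicate 4. GCH1, which makes the cofactor TH needs, had 21.9, 17.2, 27.3 and 11.1 CPM treated and 5.86, 5.65, 1.79 and 1.37 CPM untreated (2.47 ± 0.41, and 2.71 without replicate 4). DBH, which turns dopamine into noradrenaline, and the dopamine transporter SLC6A3 fell, at -1.60 and -0.69, and MAOA, which degrades dopamine, rose by 1.04 ± 0.36. Among midbrain transcription factors OTX2, EN1 and EN2 fell, at -1.08, -0.61 and -0.57, while NR4A1, NR4A2 and NR4A3 rose by 0.997, 0.82 and 1.52. RET, the signalling receptor for GDNF, had 28.1, 14.4, 22.1 and 20.0 CPM with 6-OHDA, against 122.7, 78.9, 109 and 75.3 CPM untreated (-2.16 ± 0.21, and -2.10 without replicate 4), and its coreceptor GFRA1 fell by 1.33. The dopamine receptor DRD2 fell by 0.60. Of 12 tested genes of familial Parkinson disease, 3 rose and 3 fell (median -0.0096; without replicate 4, 3 and 4, median -0.076). With all libraries, both shares were near those over all genes tested, 22.9% higher and 24.2% lower. PARK7 (DJ-1) and FBXO7 rose by 0.52 and 0.40, ATP13A2 and PLA2G6 fell, at -0.67 and -0.70, and LRRK2 was too low to test. UCHL1, an abundant neuronal deubiquitinase, rose by 0.30. SLC6A3 was not called without treated replicate 1 or 2 or untreated replicate 3 (-0.59 to -0.50), nor MAOA without treated replicate 1 or 3 or untreated replicate 4 (0.78 to 1.01), nor PARK7 without treated replicate 1 or untreated replicate 1 (0.33 to 0.47).

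The neuronal cytoskeleton fell in most of its abundant parts. Of 15 tested microtubule genes, 3 rose and 8 fell (median -0.70; without replicate 4, 3 and 9, median -0.81). TUBA1A, the main alpha tubulin of growing neurons, had 664, 614, 568 and 759 CPM with 6-OHDA, against 2257, 1629, 2440.4 and 2166 CPM untreated (-1.70 ± 0.15, and -1.78 without replicate 4). MAP2 and MAPT, which bind microtubules in dendrites and axons, fell, at -1.24 and -0.94, and DCX at -1.22. MAP1A fell by 1.12. TUBB3 rose by 0.33 ± 0.10 and TUBB2A by 0.74 ± 0.22. The neurofilaments split, with NEFL and NEFM falling, at -0.70 and -0.60, and the heavy chain NEFH rising by 0.83 ± 0.089. Peripherin, PRPH, fell by 1.35. Of 11 axonal transport genes, 1 rose and 6 fell (median -0.35; without replicate 4, the same, median -0.48), among them the dynactin subunit DCTN1 at -1.07 ± 0.084. The kinesin genes KLC1 and KIF1B fell, at -0.77 and -0.59, and KIF21A rose by 0.66.

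**Figure D4:**
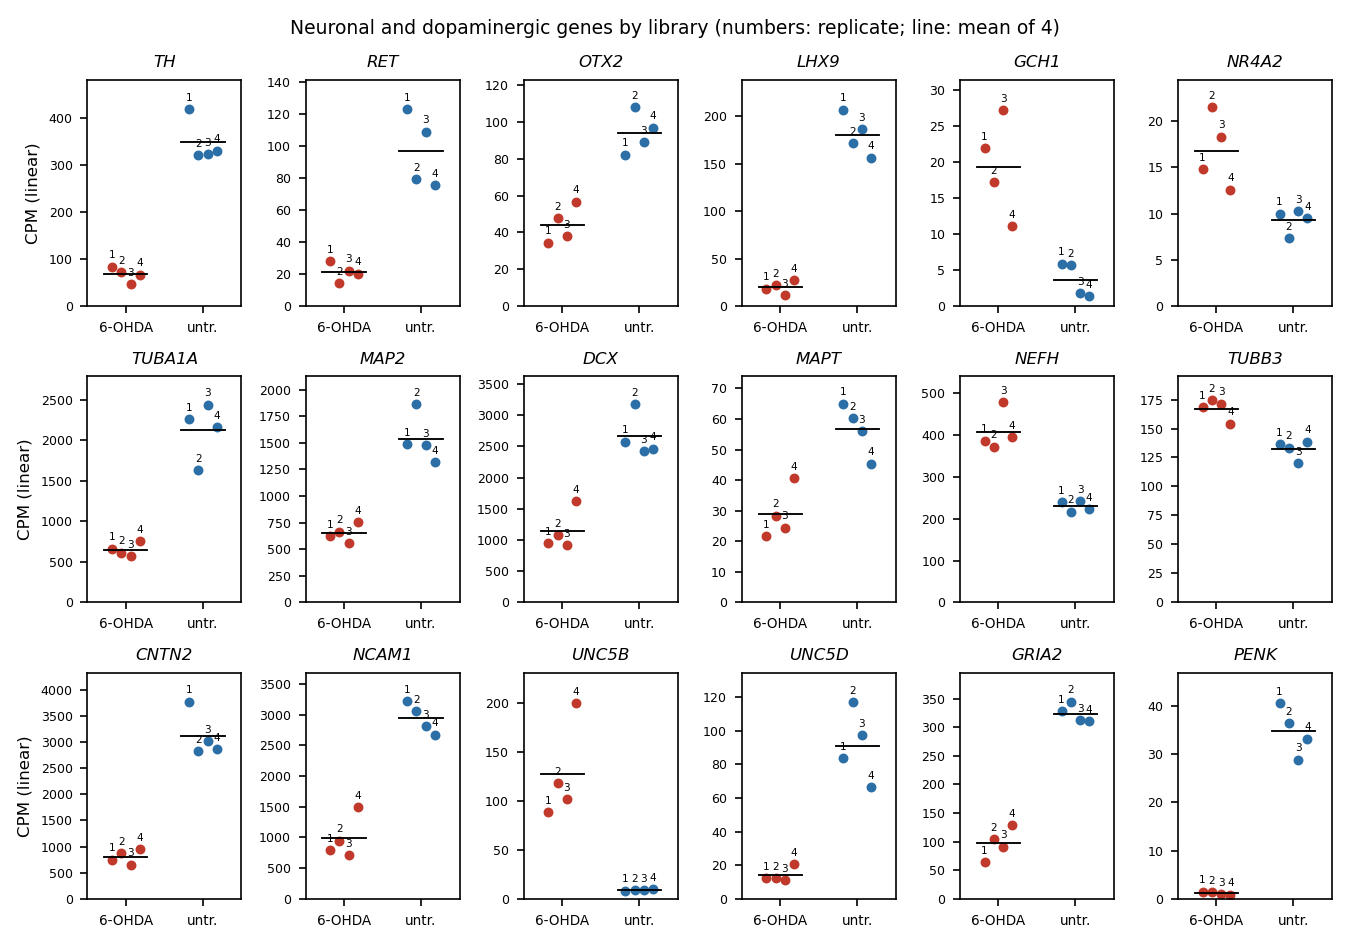
Levels of 18 neuronal and dopaminergic genes in each library (y axis, CPM on a linear scale starting at 0), with the 4 treated libraries in red at the left of each panel, the 4 untreated libraries in blue at the right, replicate numbers above the points and a line at the mean of 4. TH, RET, TUBA1A, CNTN2, LHX9 and PENK are lower in every treated library than in any untreated one, and GCH1, UNC5B and NEFH are higher.

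Many guidance and adhesion genes fell. CNTN2, an adhesion molecule of axons (chromosome 1, 205042937 to 205078284 on the plus strand, GRCh38), had 747, 879, 654 and 956 CPM with 6-OHDA, against 3769, 2829, 3017 and 2864 CPM untreated (-1.95 ± 0.13, and -2.03 without replicate 4, adjusted p = 2.56e-10). Of 14 tested adhesion genes of the immunoglobulin class, 0 rose and 10 fell (median -1.37; without replicate 4, 0 and 12, median -1.50), with NCAM1 at -1.57 ± 0.15, NCAM2 at -3.15 ± 0.27 (-3.58 without replicate 4), NFASC at -1.38 ± 0.11 and L1CAM at -0.93 ± 0.12. The netrin receptors moved in opposite directions. UNC5B had 88.9, 118, 101.98 and 200.2 CPM treated and 8.57, 9.02, 9.00 and 10.1 CPM untreated (3.80 ± 0.21, and 3.48 without replicate 4), with replicate 4 highest, while UNC5D and DCC fell, at -2.61 and -2.30. UNC5C fell by 1.07. Of 14 semaphorin, plexin and neuropilin genes, 0 rose and 8 fell (median -0.54; without replicate 4, the same, median -0.59), among them the plexin PLXNA4 at -3.74 ± 0.28 (-4.11 without replicate 4) and SEMA3D at -2.44 ± 0.19. SEMA6D and SEMA6A fell, at -1.71 and -0.69. Of 13 genes of Slit-Robo and ephrin signalling, 4 rose and 7 fell (median -0.52; without replicate 4, the same, median -0.52), with ROBO1 at -1.17 ± 0.093 and EPHA5 at -1.73 ± 0.16 lower and EPHB1 at 0.93 ± 0.23 higher. ROBO2 and the ligand SLIT1 fell, at -1.04 and -1.38. Of 15 cadherins and protocadherins, 1 rose and 7 fell (median -0.58; without replicate 4, the same, median -0.46), and PCDH17 and PCDH7 fell, at -2.61 and -2.42. The cadherins CDH7 and CDH11 fell, at -2.33 and -1.35.

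Synaptic genes were lower in part. Of 19 genes of vesicles and release, 2 rose and 10 fell (median -0.29; without replicate 4, the same, median -0.39). SYT4, a synaptotagmin, fell, at -2.27, complexin CPLX2 at -1.31 and RAB3A at -1.10, while the SNARE proteins VAMP1 and VAMP2 rose by 0.84 and 0.74. Of 12 glutamate and GABA receptor genes, 3 rose and 5 fell, and without replicate 4 these counts were 4 and 5. The AMPA receptor subunit GRIA2 fell, at -1.73, and the obligate NMDA subunit GRIN1 at -1.83 (-2.88 without replicate 4), and the AMPA subunit GRIA4 rose by 0.97. GRIK3, a kainate receptor subunit, fell by 2.42. Of 13 scaffold and synaptic adhesion genes, 1 rose and 7 fell (median -0.53; without replicate 4, the same, median -0.50). NLGN3, SHANK2 and NRXN2 fell, at -1.81, -1.23 and -1.05. Of 13 sodium and calcium channel genes, 1 rose and 10 fell (median -0.67; without replicate 4, the same, median -0.71), for instance SCN9A at -1.52 ± 0.17 and CACNA1A at -0.79 ± 0.061. The auxiliary subunits CACNA2D1 and CACNA2D2 fell, at -0.96 and -0.67. Of 13 potassium channel genes, 3 rose and 5 fell (median -0.078; without replicate 4, the same, median -0.28). KCNH2, KCNA2 and KCNC1 fell, at -0.78, -0.71 and -0.59, and KCND3 rose by 1.11. PENK, the enkephalin precursor, had 1.50, 1.44, 0.940 and 0.908 CPM with 6-OHDA, against 40.6, 36.4, 28.9 and 33.2 CPM untreated (-4.95 ± 0.32, and -4.72 without replicate 4). The peptide precursor ADCYAP1 fell by 1.37, and the granin CHGB and the convertase PCSK2 rose by 0.87 and 1.001. PCSK2 was not called without treated replicate 2 (0.76).

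Transcription factors of neuronal differentiation fell in 13 of 19 tested cases and rose in 2, the same counts as without replicate 4 (median -0.78, and -0.84 without it). EOMES, a T-box factor, fell, at -4.84 (-4.37 without replicate 4), the neuronal RNA-binding protein ELAVL4 at -3.07 (-3.85 without it), ST18 at -2.36 and POU3F2 at -1.40, and NEUROD1 rose by 1.09 ± 0.10. EBF1 and ONECUT1 fell, at -1.33 and -1.36. ID1, an inhibitor of bHLH factors, had 8.14, 7.90, 11.5 and 4.03 CPM treated and 1.00, 0.689, 1.40 and 0.800 CPM untreated (2.93 ± 0.41, and 3.22 without replicate 4). ID3 rose by 3.01. The Notch ligands DLL3 and JAG1 fell, at -1.29 and -1.08.

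Of the largest changes by the naming rule not yet given, FAM114A1 had 9.31, 12.2, 10.1 and 6.30 CPM with 6-OHDA, against 0, 0, 0.168 and 0.171 CPM untreated (6.27 ± 0.46, and 6.46 without replicate 4). DIO3, which inactivates thyroid hormone, and NPPC, the C-type natriuretic peptide precursor, rose by 4.99 ± 0.53 and 4.03 ± 0.48 (5.38 and 4.33 without replicate 4). AC022506.1, a protein-coding entry without a gene name, had 43, 20, 30 and 17 counts in treated replicates 1 to 4 and 0 in every untreated library. It was at least 68.0-fold higher with 6-OHDA, taking 3 counts over the 4 untreated libraries as the floor, and at least 135-fold higher without replicate 4. Among the largest decreases, the LIM-homeobox gene LHX9 had 18.3, 22.3, 11.3 and 27.4 CPM treated and 207, 172, 187 and 157 CPM untreated (-3.13 ± 0.19, and -3.41 without replicate 4). LMO3, PDZRN3, KIF26A, FAM234B and KNCN fell, at -3.23, -3.19, -3.18, -4.83 and -3.40, and without replicate 4 at -2.95, -3.47, -2.98, -4.53 and -3.49. LIN28A, a repressor of let-7 processing, was at -5.63 (-4.53 without replicate 4), with counts in only 1 treated library (2.87 CPM in replicate 2).

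Many hnRNP and lipid synthesis genes fell. None of 16 hnRNP genes rose and 11 fell (median -0.42), and without replicate 4 the count was 14 (median -0.58). HNRNPK and HNRNPL fell, at -0.71 and -0.62. HNRNPD and HNRNPA2B1 fell, at -0.55 and -0.51. Of 11 neuronal splicing factors, 1 rose and 6 fell (median -0.39; without replicate 4, the same, median -0.53). CELF4, CELF2 and RBFOX2 fell, at -0.95, -0.91 and -0.79. SR proteins were mostly not called, and of 15, 5 rose and 1 fell (median 0.061; without replicate 4, the same, median -0.016). TRA2A, TRA2B, SRSF7 and the SR protein kinase CLK1 rose by 0.66, 0.38, 0.51 and 0.55. Of 23 cholesterol synthesis genes, 1 rose and 12 fell (median -0.40; without replicate 4, the same, median -0.37), the riser being INSIG1, which retains the sterol sensor in the ER (0.995 ± 0.24), and DHCR7 and LSS fell, at -1.24 and -1.01. TM7SF2 and FDPS fell, at -1.15 and -0.84. Of 11 fatty acid genes, 0 rose and 8 fell (median -0.73; without replicate 4, the same, median -0.81), among them the elongase ELOVL6 at -1.08 ± 0.14 and the desaturase FADS2 at -0.90 ± 0.092. ACSL4, which activates polyunsaturated fatty acids, and the regulator SREBF1 fell, at -1.005 and -0.73. Of 13 mitochondrially encoded mRNAs, 0 rose and 5 fell (median -0.49; without replicate 4, 0 and 6, median -0.54), with MT-CO2 at -0.76 ± 0.21. MT-ATP6, MT-CO3 and MT-CYB fell, at -0.73, -0.67 and -0.58. As plain shares of counts, without TMM scaling, mitochondrial mRNAs took 0.818 to 1.09% with 6-OHDA and 0.868 to 1.20% without, which overlap. The part of scaling in these changes was not tested. Of 23 nuclear genes of complex I, 4 rose and 8 fell (median -0.19; without replicate 4, 5 and 11, median -0.25), with NDUFA4 at 0.95 ± 0.18, while the mitochondrial HSP70 gene HSPA9 rose by 1.03 ± 0.080. NDUFB11 and NDUFV1 fell, at -0.87 and -0.65, and NDUFV2 rose by 0.95. Of 27 nuclear genes of complexes II to V, 3 rose and 12 fell (median -0.23; without replicate 4, 4 and 13, median -0.22). COX5B, UQCRQ, ATP5MC3 and ATP5F1A fell, at -0.87, -0.70, -0.63 and -0.61. The fusion gene MFN2 and the fission genes DNM1L and FIS1 fell, at -0.58, -0.38 and -0.38.

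Genes of protein synthesis were called in both directions. Of 22 large-subunit ribosomal protein genes, 5 rose and 0 fell (median 0.055; without replicate 4, 4 and 1, median -0.023), a share higher that is near the 22.9% over all genes tested. RPLP1, RPLP0, RPL22 and RPL7 rose by 0.82, 0.59, 0.48 and 0.32. Of 20 small-subunit genes, 9 rose and 1 fell (median 0.24; without replicate 4, 8 and 2, median 0.13). RPS12, RPS9 and RPS16 rose by 1.53, 0.80 and 0.49. These genes share reads with near-identical pseudogenes, and pseudogene rows themselves had a median change of 0.47 over 1861 tested, so counts of such families are uncertain. Of 18 initiation and elongation factors, 5 rose and 5 fell (median 0.084; without replicate 4, the same, median 0.0041). EEF2, EIF4A1, EIF5 and EIF1 rose by 1.03, 0.91, 0.61 and 0.54, and EIF5A and EIF4G1 fell, at -0.55 and -0.34. Of 19 tested nucleolar genes, 5 rose and 5 fell (median 0.011), shares near those over all genes tested. Without replicate 4 these counts were 6 and 5 (median -0.018). GNL3 rose by 1.37, and UBTF and POLR1A, of RNA polymerase I transcription, fell, at -1.06 and -0.78, as did NHP2 at -0.93. Of 19 tested proliferation genes, 2 rose and 5 fell (median -0.50; without replicate 4, the same, median -0.47). The helicase subunits MCM5 and MCM4 fell, at -0.87 and -0.80, and CCNE2 and PLK1 rose by 1.19 and 0.92. Of 11 tested targets of the actin-linked factors SRF and YAP, 2 rose and 6 fell (median -0.38), with the same counts without replicate 4 (median -0.37). AMOTL2, ACTB, TPM1 and VCL fell, at -1.51, -0.88, -0.68 and -0.67. In the aryl hydrocarbon and retinoid list, RARA and ARNT fell, at -1.14 and -0.75, and STRA6 rose by 1.26.

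The position of replicate 4 was described over all genes called with at least a 2-fold change when it was left out. For the 2003 higher genes it had reached a median of 54.3% of the mean change of replicates 1 to 3 (interquartile range 35.2 to 73.6%), and for the 1150 lower genes 58.7% (42.8 to 76.2%). It lay beyond the mean of the other treated libraries in 165 higher and 97 lower genes, and on the opposite side of the untreated mean in 111 and 20. A library held out of the choice of genes can fall short of the others for that reason alone, so the measure was repeated with each other treated library held out. The medians for replicates 1, 2 and 3 were 107, 105 and 101.8% for higher genes and 105, 99.5 and 113% for lower genes, against means that include replicate 4. By gene list the position differed. Over the tested members, ER chaperones reached 148% of the mean change of replicates 1 to 3, ER-associated degradation 132% and serine and one-carbon synthesis 141%, whereas heat shock genes reached 38.2%, AP-1 genes 58.4% and p53 targets of death and metabolism 57.6%. Of 82 lists with 5 or more tested members, the mean log2 CPM of replicate 4 lay above all 3 other treated libraries in 36. It lay below them in 26 and within their range in 20. Above and below refer here to level and not to the share of the change reached. For instance, hnRNP genes fell, and replicate 4 lay above with 35.5% of the mean change. Inhibitors of MAP kinase signalling also fell, and replicate 4 lay below with 182%. Replicate 4 was the deepest treated library and was run on the same lane as the others. The part of depth in its position was not tested.

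The wild-type comparison, with its own untreated libraries and a single lane, allowed a test of whether the 6-OHDA change differed between genotypes. That interaction was called for 3594 of 16601 genes (21.6%), with the alpha-synuclein change more positive in 1854 (11.2%) and more negative in 1740 (10.5%). Without treated replicate 4 it was called for 3533 genes, and for 1978 when untreated replicates 3 and 4, with 4 barcode numbers, were left out. The treated alpha-synuclein libraries were the only ones of these 16 on lane 2, so lane and genotype cannot be told apart in this difference. ATF3 rose by 3.42 in alpha-synuclein cells and 5.41 in wild-type cells, a difference of -1.99 ± 0.51 (adjusted p = 0.00831). DDIT3 differed by -0.52 ± 0.10, CEBPB by -1.34 ± 0.25, GDF15 by -1.39 ± 0.43, CDKN1A by -0.97 ± 0.30 and GADD45A by -1.10 ± 0.28. In each the rise was smaller in alpha-synuclein cells. The same held for the ER genes EDEM1 (-1.35 ± 0.20), PDIA4 (-0.71 ± 0.25) and XBP1 (-0.32 ± 0.11). It also held for HSPB8, a small heat shock protein, at 1.86 against 4.90 (-3.04 ± 0.65). Most members of the ER and heat shock lists were not called for a difference. In either direction it was called in 2 of 16 ER chaperones and foldases and 1 of 11 genes of ER-associated degradation. The counts were 3 of 8 for sensors and transcription factors of the unfolded protein response and 4 of 16 for heat shock genes. In contrast, the difference was called in 6 of 7 transcription factors of the integrated stress response. It was called in 3 of 9 of that response's feedback and output genes and in 9 of 15 microtubule genes. TH fell further in alpha-synuclein cells, with a difference of -0.80 ± 0.20, as did TUBA1A (-1.04 ± 0.20), KIF26A (-1.42 ± 0.28) and SNCG (-0.60 ± 0.17). NCAM2 fell less, with a difference of 2.26 ± 0.51. The differences of PDIA4 and XBP1 were not called without treated replicate 1 (-0.61 and -0.27), treated replicate 2 (-0.61 and -0.25) or untreated replicate 4 (-0.71 and -0.30). PDIA4 also lost it without untreated replicate 3 (-0.63), XBP1 without treated replicate 3 (-0.25), and GDF15 without untreated replicate 1 or 3 (-1.20 and -1.24). GPX4, GSTP1 and the cytokine IL11 had changes of opposite sign, at -0.40, -0.29 and -0.92 in alpha-synuclein cells against 0.37, 0.54 and 0.67 in wild-type cells (differences of -0.77 ± 0.14, -0.84 ± 0.13 and -1.59 ± 0.24). NGFR, the p75 neurotrophin receptor, had -1.02 ± 0.38 against 1.74 (-2.76 ± 0.50), but without replicate 4 its change in alpha-synuclein cells was not called (-0.63). HMOX1, NQO1, GCLM and SLC7A11 did not pass this test, with differences of -0.60 ± 0.96, 0.067 ± 0.23, 0.18 ± 0.20 and 0.62 ± 0.31.

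**Figure D5:**
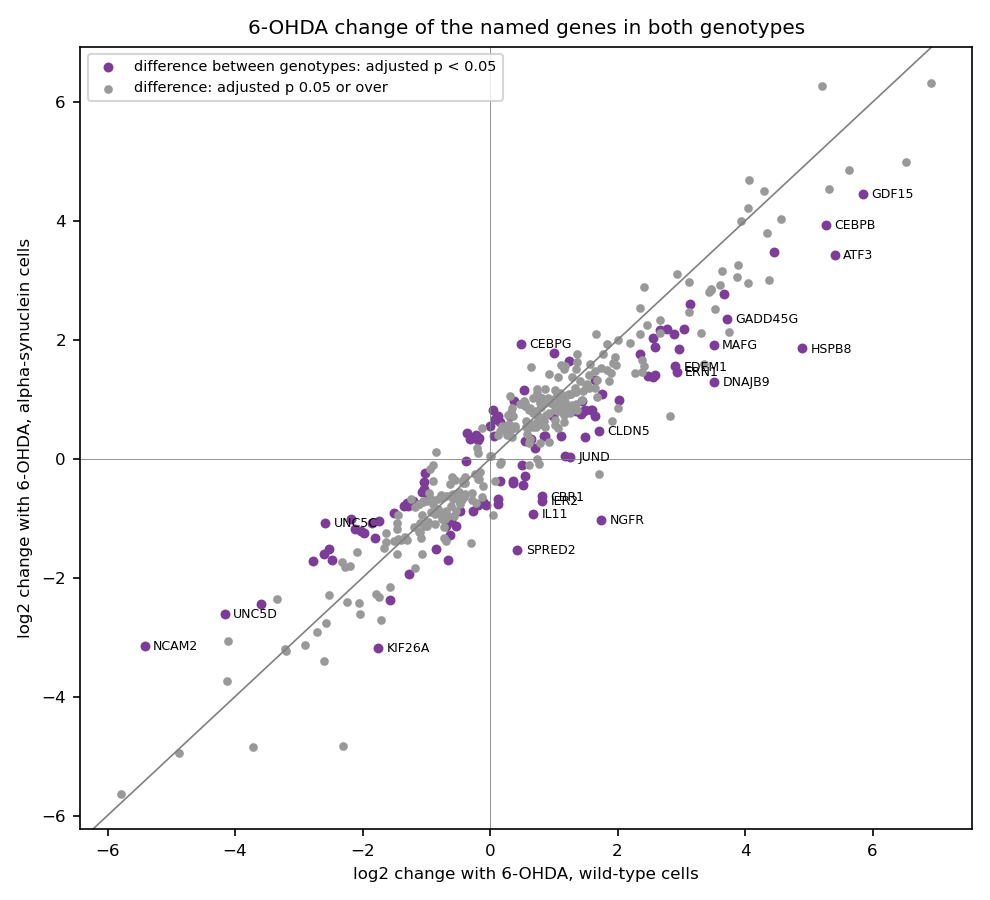
Log2 change with 6-OHDA in alpha-synuclein cells (y axis) against that in wild-type cells (x axis) for the named genes that were tested and had counts in untreated alpha-synuclein cells. The diagonal marks equal changes, purple points passed the test of the difference at an adjusted p under 0.05, and names are given for those that differ by 1.2 or more. ATF3, CEBPB and HSPB8 lie below the diagonal, and NCAM2 above it.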

How the data were processed

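Poly(A) RNA of LUHMES cells was sequenced from libraries made with the MGIEasy RNA Library Prep set, per the labels' protocols. The authors deposited 1 table of estimated counts for 34679 genes, which held whole numbers. The submitters' processing notes name Trimmomatic 0.38, kallisto 0.46.2 and GRCh38 (hg38), with no role or order, and the sources used here do not give the annotation release or the strand setting. Of the deposited IDs, 34658 (99.9%) matched GENCODE 29, from which names and positions were taken. 

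Counts were analysed in R 4.3.3 with edgeR 4.0.16 (TMM scaling, a low-count filter at a minimum count of 10 that set aside 0.174% of counts and left 16601 genes, quasi-likelihood tests over all 22 libraries, Benjamini-Hochberg adjustment at 0.05) and a prior count of 2 for log values. The difference between genotypes was tested as an interaction. DESeq2 1.42.0 was an alternative. The code was tested on simulated data. The rule named CEBPB, AKR1C3, TH and HMOX1, in each list role the 4 tested members with the smallest adjusted p and others needed to account for the role, and the 12 largest called changes each way among genes whose groups did not overlap and whose higher group averaged at least 5 CPM. The 88 lists held 1127 genes, of which 989 were tested and 47 were not analysed here. The members and lists were chosen with earlier results of these data known. Some genes that the rule names, among them members of these lists, are not reported here. Members named beyond those 4 were picked after their values were seen. Replicate numbers did not pair the libraries.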

Additional observations from a re-analysis of the deposited data

Results flagged for a closer look

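Of 223 groups of 4 libraries (the named genes of the rule, lists and principal component), 19 held 1 library whose gap to its nearest neighbour exceeded the critical value of Dixon's test as a share of the group's range, and chance gives such a library in about 1 group in 20. The values below are that gap as a share of the range. For the first principal component score, treated replicate 4 was the lowest of its group (0.847). HMOX1, which encodes haem oxygenase 1, was lowest in the same library (0.864), as was AC022506.1 (0.990). Treated replicate 4 was also lowest in the mean log2 CPM of the 20S core beta subunits (0.938), the BH3-only genes (0.856), NF-kappaB subunits and inhibitors (0.923) and Notch and progenitor genes (0.858). It was highest for aminoacyl-tRNA synthetases (0.849), axonal transport motors (0.882) and fatty acid genes (0.945). Other treated libraries stood apart for LIN28A, where replicate 2 was the highest (1.0), midbrain transcription factors, where replicate 2 was the highest (0.897), and glutamate and GABA receptors, where replicate 3 was the lowest (0.870). Among untreated libraries, replicate 3 was the highest for CEBPB (0.882) and for proliferation genes (0.842), replicate 1 was the highest for TH (0.886), replicate 2 was the lowest for p53 targets of death and metabolism (0.885), and replicate 4 was the lowest for LMO3 (0.856) and PDZRN3 (0.866).

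The change with 6-OHDA differed between alpha-synuclein and wild-type cells by edgeR's interaction test, with Benjamini-Hochberg adjustment over all genes, in the genes named next. Values are alpha-synuclein minus wild-type log2 changes ± SE, with the adjusted p. More negative in alpha-synuclein cells were CEBPB -1.34 ± 0.25 (adjusted p = 0.0011), TH -0.80 ± 0.20 (adjusted p = 0.00729), GDF15 -1.39 ± 0.43 (adjusted p = 0.0242), KIF26A -1.42 ± 0.28 (adjusted p = 0.00174), ATF3 -1.99 ± 0.51 (adjusted p = 0.00831) and DDIT3 -0.52 ± 0.10 (adjusted p = 0.00174). Further such differences were TUBA1A -1.04 ± 0.20 (adjusted p = 0.00158), HSPB8 -3.04 ± 0.65 (adjusted p = 0.00256), NGFR -2.76 ± 0.50 (adjusted p = 0.000964), IL11 -1.59 ± 0.24 (adjusted p = 0.000365), SNCG -0.60 ± 0.17 (adjusted p = 0.013) and GADD45A -1.10 ± 0.28 (adjusted p = 0.00808). Further such differences were EDEM1 -1.35 ± 0.20 (adjusted p = 0.000297), PDIA4 -0.71 ± 0.25 (adjusted p = 0.042), XBP1 -0.32 ± 0.11 (adjusted p = 0.0326), GSTP1 -0.84 ± 0.13 (adjusted p = 0.000531), GPX4 -0.77 ± 0.14 (adjusted p = 0.00109) and CDKN1A -0.97 ± 0.30 (adjusted p = 0.0252). More positive was NCAM2 2.26 ± 0.51 (adjusted p = 0.00371). The treated alpha-synuclein libraries were on lane 2 and the other 12 of these 16 on lane 1, so lane and genotype cannot be told apart in these differences.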

How the results depend on the processing

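Depth limited the low genes, since the shallowest treated library held 2520764 estimated counts, and the floors of 3 counts cover counting error only. The test of the difference between genotypes also used wild-type 6-OHDA libraries with 12642017, 3115158, 2039602 and 1866396 counts in replicates 1 to 4. The thinning named below covered the 8 alpha-synuclein libraries only. The number of genes called with 6-OHDA was 6714 to 8520 with 1 library left out, 7867 with RLE size factors, 7716 with DESeq2, 7484 without the low-count filter, 7142 at a minimum count of 30, 6671 in a fit of the 8 libraries alone, 6242 with counts thinned to the shallowest library and 5855 without untreated replicates 3 and 4. The number of genes whose change differed between genotypes was 2861 to 4298 with 1 library left out, 1978 without untreated replicates 3 and 4, and 2085 without these and treated replicate 4, a setting chosen after seeing the data. Same-numbered libraries did not deviate together (correlations of -0.072 to 0.041), so the numbers do not pair them, and with a replicate block 7681 genes were called, and 3354 for the difference between genotypes. Of 420 named genes under these settings, 53 lost a call at least once and 14 gained one. Of the named genes whose change differed between genotypes, 62 lost that call at least once, 44 of them without untreated replicates 3 and 4, and 54 kept it under every setting that gave a value. No called gene changed sign. A sign changed in 16 genes that were not called, and the cause was not tested. With 1 library left out their changes ranged as follows: ATF6 (-0.23 to 0.18), ATF6B (-0.21 to 0.094), EIF2AK2 (-0.32 to 0.10), EIF2AK3 (-0.12 to 0.52), ERO1A (-0.19 to 0.043), HLA-E (-0.078 to 1.34), JUND (-0.053 to 0.12), KDELR1 (-0.12 to 0.16), MBTPS2 (-0.23 to 0.090), SLC18A2 (-0.31 to 0.019), SLC1A2 (-0.047 to 0.21) and SNAP25 (-0.076 to 0.018). Without untreated replicates 3 and 4, the sign changed for ATF6 (0.35), EIF2AK2 (0.14) and EIF2AK3 (-0.10). Without these and treated replicate 4, the sign changed for ATF6 (0.12), CRELD2 (-0.039), EIF2AK2 (0.015), EIF2AK3 (-0.095), MAP1LC3B (-0.0044) and MBTPS2 (0.054). With counts thinned to the shallowest library, the sign changed for ATF6B (0.031), BDNF (0.056), SEC16A (0.019) and SNAP25 (0.13). In a fit of 7 libraries without treated replicate 4, the sign changed for ERO1A (0.026) and MBTPS2 (0.13). Without the low-count filter, the sign changed for JUND (-0.00064). With the replicate block and without treated replicate 4, the sign changed for MBTPS2 (0.056). At a minimum count of 30, the sign changed for SEC16A (0.022) and SNAP25 (0.043). In a fit of the 8 libraries alone, the sign changed for SNAP25 (0.0035). The median of a gene list moved by more than 1 SD in 215 of 1672 list and setting pairs.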

Other observations

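Long genes were lower somewhat more often than short ones. Of 625 tested protein-coding genes that span more than 320 kb, 18.9% were called higher and 38.4% lower with 6-OHDA (median log2 change -0.18, and -0.22 without treated replicate 4). Of 2753 such genes of at most 10 kb, 20.9% were called higher and 25.4% lower (median -0.039, and -0.048 without it). In wild-type cells the medians of the same genes were -0.42 for the long and 0.30 for the short ones. These are descriptions across genes, which are not independent replicates, and no test was made.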
